A study of Homo sapiens with 6 samples.

Results

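CLK1, CLK2, CLK3, CLK4, SRPK1, SRPK2 and DYRK1A are kinases that phosphorylate splicing factors, and their transcripts were read here as a set of 7 genes among 35052. The genes were taken by name, and 110 of the 167027 matched transcripts belonged to them, each sorted by its annotated type into coding, intron-retaining, nonsense-mediated decay or other processed transcripts. The data are polyA RNA-seq of EoL-1, an established human eosinophilic leukaemia line, from 3 libraries of cells edited in both ATF3 and JUN (labelled ATF3/JUN double knockout) and 3 libraries of cells edited in JUN alone (labelled JUN knockout). Both genes encode bZIP transcription factors, the double knockout was set against the JUN knockout, and the JUN knockout is thus shared by all 6 libraries. The labels state CRISPR/Cas9 editing of ATF3, name no other treatment, and do not state that replicates are separate clones, although the names of the deposited files carry clone codes. No unedited cells were analysed here, and every p-value reflects only how far these 6 libraries spread, which may be technical.

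SR proteins bind exons and direct the spliceosome, and their arginine-serine tails are phosphorylated by several kinase families. SRPK kinases act mainly in the cytoplasm and promote import of SR proteins into the nucleus, CLK kinases act in the nucleus and release SR proteins from speckles, and DYRK1A is a related nuclear kinase with splicing factors among its substrates. CLK transcripts are themselves regulated by splicing: skipping of exon 4 shifts the reading frame before the kinase domain, and transcripts that keep the introns beside exon 4 are known to stay in the nucleus.

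The sequences that follow show that exon, since the transcript classes of the CLK genes divide around it. Each gives, on the transcript's strand and in GENCODE 29 (GRCh38) coordinates, the exon in capitals between the last 20 bases of intron 3 and the first 10 bases of intron 4.
CLK1 exon 4, chr2:200860115-200860235, minus strand: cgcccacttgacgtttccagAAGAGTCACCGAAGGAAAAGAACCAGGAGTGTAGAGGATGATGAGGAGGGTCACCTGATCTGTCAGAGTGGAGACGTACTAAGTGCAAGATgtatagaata
CLK4 exon 4, chr5:178617334-178617454, minus strand: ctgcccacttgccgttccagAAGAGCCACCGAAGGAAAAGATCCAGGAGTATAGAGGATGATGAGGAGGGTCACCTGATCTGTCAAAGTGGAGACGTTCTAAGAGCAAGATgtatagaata
CLK3 exon 4, chr15:74622100-74622226, plus strand: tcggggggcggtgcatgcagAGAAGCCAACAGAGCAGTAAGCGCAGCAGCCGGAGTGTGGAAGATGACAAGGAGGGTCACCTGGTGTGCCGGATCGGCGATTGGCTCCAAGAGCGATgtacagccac
Exon 4 measured 91 bases in CLK1 and CLK4, 97 in CLK3 and 88 in CLK2, and each length leaves a remainder of 1 when divided by 3. The exons of CLK1 and CLK4 were identical at 85 of 91 positions (93.4%). How reads from this exon were divided between both genes was not tested.

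A pair of CLK1 transcripts that skip exon 4 differ at the junction of exons 3 and 5 by a single base, shown in capitals within 15 bases of either exon, spliced together across chr2:200859732-200861252 on the minus strand.
CLK1-215, annotated coding: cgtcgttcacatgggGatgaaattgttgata
CLK1-204, annotated nonsense-mediated decay: cgtcgttcacatgggatgaaattgttgata
With the extra base, CLK1-215 keeps an annotated reading frame of 454 codons, against 136 codons in CLK1-204. The full-length coding model, CLK1-201, has 13 exons and 484 codons and was listed at 0 in all 6 libraries, and its length in the deposited files (1847 bases) differs from that in the annotation (1888 bases).

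The 6 libraries held between 26146998 and 29567970 estimated reads. JUN knockout replicate 1 was closer in its gene counts to double-knockout replicates 1 and 2 (chi-square per gene 20.9 and 20.2) than to JUN knockout replicates 2 and 3 (41.9 and 67.3), and double-knockout replicate 3 was closer to JUN knockout replicates 2 and 3 (19.0 and 13.5) than to its own group (38.8 and 32.6). ATF3 RNA was 13.1, 10.0 and 7.63 CPM (estimated reads scaled to library size) in double-knockout libraries, against 20.2, 13.7 and 8.89 CPM in JUN-knockout libraries, and JUN RNA was 13.8, 16.6 and 25.7 CPM in double-knockout libraries, against 13.2, 27.2 and 24.6 CPM in JUN-knockout libraries. Both ranges overlap, although ATF3 was lower in the double-knockout library of each same-numbered pair (3 of 3), and neither gene passed the edgeR test (adjusted p = 0.932 for ATF3 and 0.974 for JUN). As an edited gene can still be transcribed, the RNA level does not check the labels. Of 11 eosinophil markers, 9 were under 1 CPM and 5 of those were at 0 in every library, and the summed level ran from 63.0 to 105.0 CPM in double-knockout and from 36.6 to 111.0 CPM in JUN-knockout libraries. The 5 erythroid markers were at 0, 4 T cell and 4 fibroblast markers each summed to under 1 CPM, and the 3 B cell markers summed to 3.36 to 8.48 CPM in double-knockout and 2.41 to 6.5 CPM in JUN-knockout libraries.

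Among the nuclear kinases, CLK1 and CLK4 RNA was lower in the double knockout, while CLK3, DYRK1A and both SRPK genes differed by less than the spread between libraries. None of these differences passed the test over all genes, and in bulk RNA a lower level per cell and fewer cells with the RNA cannot be told apart. By level per transcript length (TPM, length-scaled transcript abundance), the double-knockout order was SRPK1 (74.2 ± 9.08 TPM), CLK1 (71.2 ± 4.83), CLK3 (47.2 ± 0.674), CLK4 (23.3 ± 1.71), DYRK1A (13.0 ± 1.35), SRPK2 (11.3 ± 1.93) and CLK2 (6.46 ± 5.63), each as mean ± SD, n = 3. In the JUN knockout it was CLK1 (98.6 ± 16.4 TPM), SRPK1 (71.6 ± 1.33), CLK3 (46.8 ± 2.68), CLK4 (27.5 ± 5.12), DYRK1A (13.3 ± 2.78), SRPK2 (10.5 ± 1.59) and CLK2 (2.69 ± 4.67). CLK2 rests on 1 matched transcript, which was at 0 in libraries of both genotypes, so its place is not read. SRPK1 and CLK1 did not differ beyond their spread in the double knockout, and DYRK1A and SRPK2 did not in either genotype. The place of CLK1 depends on short models, such as CLK1-214 (480 bases, mean 14.4 TPM in the double knockout and 19.8 in the JUN knockout). Coding transcripts averaged 19.5 TPM for CLK1 and 62.4 for SRPK1 in the double knockout, and 27.5 and 61.9 in the JUN knockout. By CPM, SRPK1 averaged 306.7 and CLK1 111.7 in the double knockout, and 300.4 and 153.6 in the JUN knockout.

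**Figure D1:**
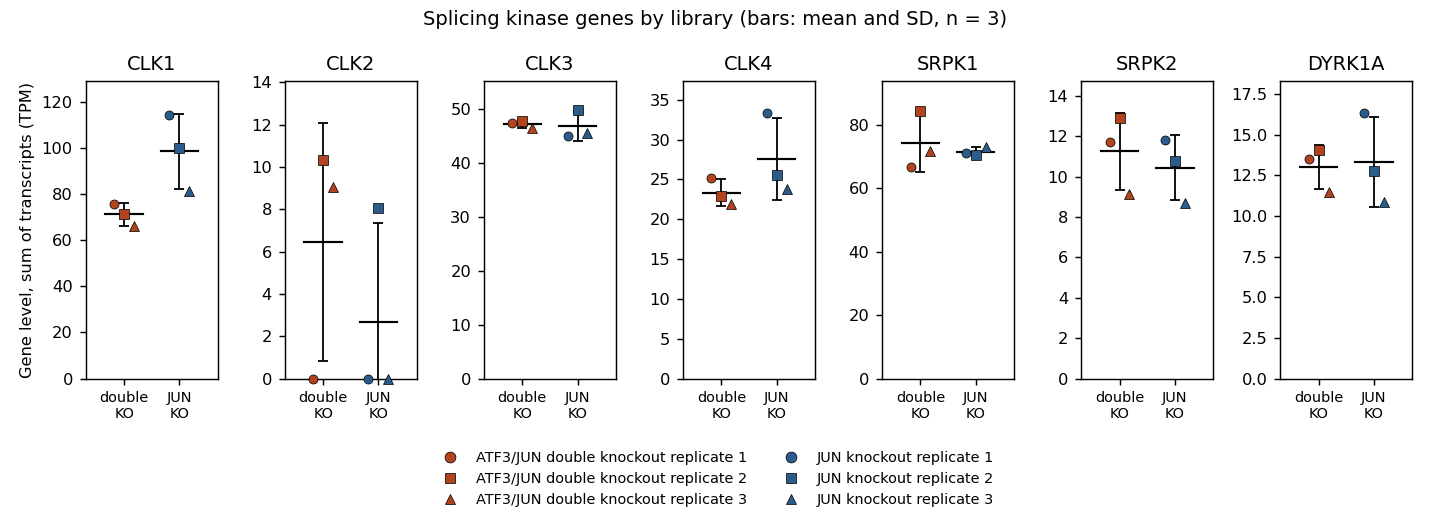
Gene level in TPM (sum of a gene's transcripts, linear axes from 0) of the 7 kinases in 3 ATF3/JUN double-knockout libraries (left) and 3 JUN-knockout libraries (right), with mean and SD. CLK1 is between 66.3 and 75.9 TPM in the double knockout and between 81.6 and 114.3 TPM in the JUN knockout. CLK2, with 1 matched transcript, is at 0 in 3 of the 6 libraries.

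CLK1, a dual-specificity kinase of SR proteins (gene at chr2:200853009-200864744, minus strand), measured 113.9, 112.9 and 108.2 CPM in double-knockout libraries, against 177.5, 149.6 and 133.7 CPM in JUN-knockout libraries. Every double-knockout library was below every JUN-knockout library. The log2 fold change was -0.46 (SE 0.11), with adjusted p = 0.716 (edgeR quasi-likelihood test, Benjamini-Hochberg over 12954 genes). Leaving out JUN knockout replicate 1 gave -0.34, and leaving out double-knockout replicate 3 gave -0.44. No gene (0%) passed this test at 0.05, so the level of CLK1 is reported as a difference that failed the correction. Its unadjusted p was under 0.05, as for 2.89% of genes in that direction, and groups that did not overlap in that direction occurred in 5.94% of genes.

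CLK4, the closest relative of CLK1 (chr5:178602664-178630615, minus strand), measured 47.3, 45.8 and 43.2 CPM in double-knockout libraries, against 60.7, 53.0 and 50.8 CPM in JUN-knockout libraries. These groups also did not overlap in CPM, although they overlapped in TPM. The log2 fold change was -0.27 (SE 0.095), with adjusted p = 0.816 (edgeR) and an unadjusted p under 0.05. Leaving out JUN knockout replicate 1, the library in which both CLK1 and CLK4 were highest, gave -0.19, and leaving out double-knockout replicate 3, in which both were lowest, gave -0.24.

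CLK3 (chr15:74598500-74645414, plus strand) measured 63.1, 64.4 and 61.1 CPM in double-knockout libraries, against 61.3, 67.5 and 60.5 CPM in JUN-knockout libraries, a log2 difference of -0.01 (SE 0.079). DYRK1A (chr21:37365573-37526358, plus strand) gave 76.4, 78.2 and 71.0 CPM in the double knockout, against 82.7, 78.03 and 68.6 CPM in the JUN knockout, a log2 difference of -0.02 (SE 0.095). For both genes the libraries of the genotypes overlapped.

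SRPK1, a mainly cytoplasmic SR protein kinase (chr6:35832966-35921342, minus strand), had 296.5, 308.2 and 315.5 CPM in double-knockout libraries, against 262.7, 310.4 and 328.2 CPM in JUN-knockout libraries, with a log2 difference of 0.03 (SE 0.10). Its paralogue SRPK2 (chr7:105110704-105399308, minus strand) had 39.2, 39.6 and 31.5 CPM in the double knockout, against 35.2, 37.1 and 29.8 CPM in the JUN knockout, with a log2 difference of 0.11 (SE 0.13). Each double-knockout library was above the JUN-knockout library of its number for SRPK2 (3 of 3), but the genotypes overlapped (edgeR, adjusted p = 0.969).

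CLK2 (chr1:155262868-155273516, minus strand) was represented by 1 matched coding transcript, CLK2-203, and its other transcripts were not analysed here. That transcript held 0, 575 and 582 estimated reads in double-knockout libraries, against 0, 508 and 0 in JUN-knockout libraries. A value that is 0 in one library and above 500 in another of the same genotype may be a failed estimate, so its fitted log2 difference of 1.21 (SE 1.93) is not read further. With no matched intron-retaining transcript, CLK2 has no intron-retaining share.

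For single kinases, the genes with the most similar values over the 6 libraries were picked as a description. Among 8944 tested genes with at least 10 CPM, the 3 whose log2 CPM followed CLK1 most closely over the 6 libraries were XAB2, IKBKB and SUGP1, with Pearson r between 0.9935 and 0.9985. For CLK4 they were PABPC4, ATAD2B and SLC22A15, with r between 0.9893 and 0.9899. For SRPK1 they were DDX10, TIMM8A and MRPS25 (0.9918 to 0.9989). As these r values are the highest of 8944, they do not show a pattern particular to these genes. CLK2, whose values may be a failed estimate, also had a best r of 0.9839 (IKZF1). The points share their libraries and r is a description of 6 values.

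The transcript classes of CLK1 did not move alike. Its transcripts annotated as intron-retaining made up most of its TPM in the double knockout, and also in JUN knockout replicate 2 (53.0%). No whole intron was found retained in CLK1-214, CLK1-211 and CLK1-206, which held 20.1, 5.95 and 3.42% of CLK1 TPM on average over all libraries. CLK1-210, CLK1-207 and CLK1-212, with whole introns in place, held 16.7, 4.28 and 1.12%. The class share is thus not the share of CLK1 RNA that keeps a whole intron. Part of the class TPM lay in short models with few reads. CLK1-214 (480 bases) held 98.9, 98.0 and 105 of the 1495, 1892 and 1743 intron-retaining reads in double-knockout libraries. Coding and decay-class transcripts were both lower in the double knockout than in the JUN knockout, and intron-retaining transcripts were not separated between them. Coding CLK1 transcripts summed to 19.7, 19.3 and 19.6 TPM in double-knockout libraries, against 34.3, 25.2 and 23.0 TPM in JUN-knockout libraries. All double-knockout values lay below all JUN-knockout values, which occurred in 5.25% of the 4632 genes with both classes. Transcripts of the nonsense-mediated decay class, which carry an early stop codon, summed to 13.4, 5.85 and 7.62 TPM in the double knockout, against 23.6, 19.3 and 18.9 TPM in the JUN knockout. These too did not overlap, as in 6.51% of 2964 genes with decay-class and coding reads. Intron-retaining transcripts summed to 42.9, 42.3 and 37.0 TPM in the double knockout, against 53.2, 53.0 and 31.3 TPM in the JUN knockout, and these overlapped.

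As a share of CLK1 TPM, transcripts annotated as intron-retaining were 56.5, 59.1 and 55.8% in double-knockout libraries, against 46.6, 53.0 and 38.4% in JUN-knockout libraries. The share averaged 57.1 ± 1.76% in the double knockout and 46.0 ± 7.32% in the JUN knockout (SD, n = 3 each), a difference of 11.1 percentage points with an exact two-sided permutation p of 0.1, the smallest that 3 against 3 libraries allow. Groups that did not overlap in this direction occurred in 2.31% of genes, against 18.8% in the opposite direction. The difference was 7.33 points without JUN knockout replicate 3, 11.4 points with JUN knockout replicate 1 left out and 11.8 points with double-knockout replicate 3 left out. It was larger than that of 98.7% of tested genes. The coding share overlapped, at 25.9, 26.9 and 29.6% in the double knockout and 30.03, 25.3 and 28.2% in the JUN knockout, whereas the decay-class share did not, at 17.6, 8.17 and 11.5% in the double knockout and 20.7, 19.3 and 23.2% in the JUN knockout. Non-overlap of the decay-class share in this direction occurred in 5.8% of genes. The choice of denominator mattered: set against coding TPM alone, the intron-retaining share differed by 5.48 points (exact permutation p = 0.2), and intron-retaining and decay-class transcripts together differed by 2.52 points (exact permutation p = 0.4).

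**Figure D2:**
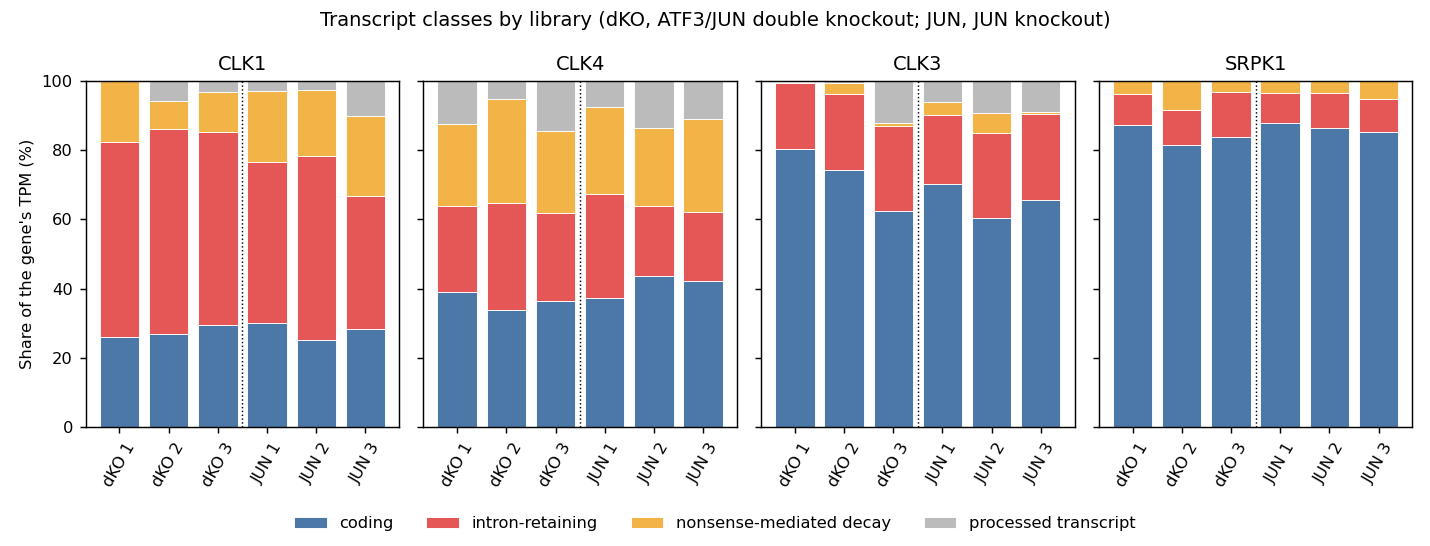
Share of each gene's TPM (%) in coding, intron-retaining, nonsense-mediated decay and processed transcripts, 1 bar per library, with ATF3/JUN double-knockout libraries left and JUN-knockout libraries right of the dotted line. The intron-retaining band of CLK1 is between 55.8 and 59.1% in the double knockout and between 38.4 and 53.0% in the JUN knockout, while those of CLK4, CLK3 and SRPK1 overlap.

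The intron-retaining share of CLK1 differed in the direction opposite to that of the transcriptome. The summed level of these CLK1 transcripts did not rise. It overlapped, with means of 40.7 TPM in the double knockout and 45.9 TPM in the JUN knockout. Over the whole library, intron-retaining transcripts took 4.75, 5.00 and 5.18% of estimated reads in double-knockout libraries, against 5.65, 5.86 and 5.75% in JUN-knockout libraries (exact permutation p = 0.1). The median share of TPM over the 4632 genes with both classes was 14.8% in the double knockout and 17.5% in the JUN knockout, and 72.8% of these genes had a lower mean share in the double knockout. This library-wide difference moved with the genotype, and its part in the values of single kinases was not tested.

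In a count model of intron-retaining against coding reads, CLK1 had 189, 236 and 188 intron-retaining reads per 100 coding reads in double-knockout libraries, against 156, 161 and 126 in JUN-knockout libraries. The groups did not overlap, which occurred in this direction in 2.22% of genes and in the opposite one in 22.5%. The log2 change of this ratio was 0.47 (SE 0.18), with adjusted p = 0.26 (edgeR) over the 4632 genes, none of which (0%) passed at 0.05. Its unadjusted p was under 0.05, as for 1.21% of genes in this direction and 15.5% in the opposite one. The median gene changed by -0.28 on this scale, so CLK1 lay 0.75 above it, and after centring on all genes the change was 0.71 (edgeR, adjusted p = 0.314), with adjusted p-values from 0.193 to 0.465 over all alternatives. The log2 change of decay-class against coding reads was -0.72 (SE 0.35, edgeR, adjusted p = 0.913, with 0 genes or 0% called). Per 100 coding reads, decay-class reads were 69.0, 30.3 and 39.6 in the double knockout and 66.5, 73.4 and 75.6 in the JUN knockout, and these overlapped. For the log2 change, leaving out double-knockout replicate 1 gave -1.05 and leaving out replicate 2 gave -0.46.

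CLK4 had 60.3, 94.6 and 72.6 intron-retaining reads per 100 coding reads in double-knockout libraries, against 71.4, 53.9 and 56.1 in JUN-knockout libraries. The groups overlapped, with a log2 change of 0.31 (SE 0.24, edgeR adjusted p = 0.533). Its coding transcripts alone did separate, as for 5.25% of genes with both classes in that direction. They were at 9.86, 7.78 and 7.98 TPM in the double knockout and 12.5, 11.2 and 10.0 TPM in the JUN knockout. The intron-retaining share of CLK4 was 24.8, 30.9 and 25.5% in the double knockout and 30.1, 20.1 and 19.8% in the JUN knockout, a difference of 3.73 points that ranged from 1.82 points without double-knockout replicate 2 to 7.09 points without JUN knockout replicate 1. The log2 change of the CLK4 ratio was 0.14 without double-knockout replicate 2.

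CLK3 differed in the other direction, with overlapping groups. It had 33.7, 40.7 and 57.5 intron-retaining reads per 100 coding reads in double-knockout libraries, against 52.4, 63.6 and 53.8 in JUN-knockout libraries, a log2 change of -0.39 (SE 0.24, edgeR adjusted p = 0.434), beside -0.28 for the median gene. It was -0.61 without double-knockout replicate 3 and -0.22 without replicate 1 of that genotype. Its intron-retaining share was 18.9, 22.0 and 24.7% in the double knockout and 20.2, 24.6 and 24.9% in the JUN knockout.

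SRPK1 was mostly coding, at 87.3, 81.6 and 84.0% of its TPM in double-knockout libraries and 87.8, 86.5 and 85.2% in JUN-knockout libraries. It had 7.60, 7.50 and 7.60 intron-retaining reads per 100 coding reads in the double knockout, against 7.36, 6.75 and 5.79 in the JUN knockout. These groups did not overlap, as in 2.22% of genes in that direction, and the log2 change was 0.20 (SE 0.14, edgeR adjusted p = 0.51). On the TPM scale the intron-retaining shares overlapped, at 8.96, 9.97 and 12.7% in the double knockout and 8.63, 10.1 and 9.64% in the JUN knockout.

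DYRK1A had few intron-retaining reads, 18.2, 23.4 and 20.1 in double-knockout libraries against 46.2, 27.5 and 31.5 in JUN-knockout libraries, beside a mean of 1993 coding reads. The log2 change of its ratio was -0.73 (SE 0.25, edgeR, adjusted p = 0.23, unadjusted p under 0.05 as for 15.5% of genes in that direction), and its TPM share was 3.89, 4.00 and 4.32% in the double knockout against 6.90, 4.33 and 5.74% in the JUN knockout, without overlap, as in 18.8% of genes in that direction. The share difference of -1.59 points was near the median of -1.51 points over all tested genes, and became -0.97 points without JUN knockout replicate 1. SRPK2 had 1.48, 4.30 and 2.52 intron-retaining reads in the double knockout against 3.24, 8.08 and 10.6 in the JUN knockout. These were under the mean of 10 reads needed for the test, so the SRPK2 ratio was not tested.

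**Figure D3:**
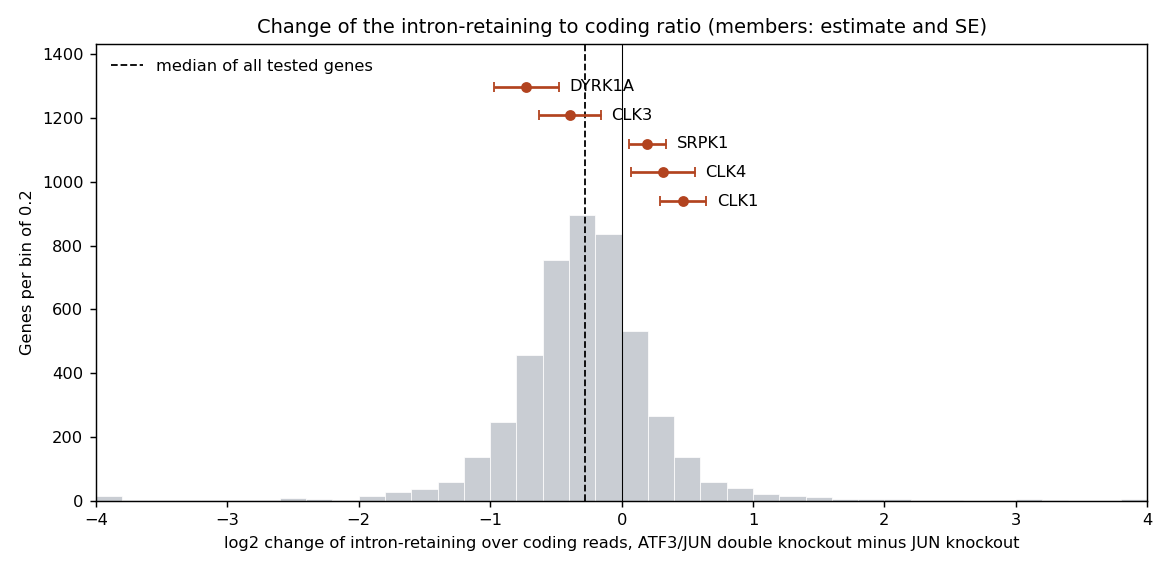
Histogram of the log2 change of intron-retaining over coding reads, ATF3/JUN double knockout minus JUN knockout, for 4632 genes in bins of 0.2 (the 20 genes beyond the axis are counted in the end bins), with the 5 tested kinases as points with SE. The dashed line marks the median of -0.28. CLK1, CLK4 and SRPK1 are right of 0, and CLK3 and DYRK1A are left of it.

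At the level of single CLK1 transcripts, the lowest p-values belonged to the 2 transcripts that skip exon 4 (shown above by their junctions). CLK1-215, annotated coding, was at 11.5, 12.3 and 9.23 TPM in double-knockout libraries, against 23.5, 15.4 and 16.7 TPM in JUN-knockout libraries. Its log2 fold change was -0.71 (SE 0.17, edgeR, adjusted p = 0.542 over 49298 transcripts). Its unadjusted p was under 0.05, as for 3.28% of transcripts in that direction, and it was -0.56 with JUN knockout replicate 1 left out. CLK1-204, of the decay class, was at 7.06, 2.72 and 4.48 TPM in the double knockout, against 16.7, 12.8 and 11.2 TPM in the JUN knockout, and differed by -1.47 on the log2 scale (SE 0.38, adjusted p = 0.622 by edgeR). Neither pair of groups overlapped, as in 9.1% of tested transcripts in that direction. No transcript (0%) passed the edgeR test, while DESeq2 called 691 of 92664 transcripts (0.746%), these 2 among them, with adjusted p = 0.0476 for CLK1-215 and 0.0363 for CLK1-204. Over all alternatives the adjusted p ran from 0.0476 to 0.895 for CLK1-215 and from 0.0363 to 0.9999 for CLK1-204. At the junction their reads are told apart by 1 base, and their lengths also differ (1843 bases in CLK1-215 and 1682 in CLK1-204), so the coding and decay-class sums of CLK1 depend on how Salmon divided reads between near-identical transcripts.

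The decay-class transcript CLK1-202, which skips exon 10, was at 6.30, 3.13 and 3.14 TPM in double-knockout libraries, against 6.96, 6.48 and 7.66 TPM in JUN-knockout libraries. The coding transcript CLK1-205, which includes exon 4 and falls under the 5% of gene TPM set for naming, was at 1.83, 1.45 and 3.54 TPM in the double knockout and 3.62, 4.29 and 3.62 TPM in the JUN knockout. CLK1-210, the intron-retaining transcript with introns 3 and 4 in place, was at 12.1, 16.8 and 12.0 TPM in the double knockout and 19.4, 13.5 and 9.92 TPM in the JUN knockout, and these overlapped with a log2 fold change of -0.02 (SE 0.24). The short model CLK1-214, 480 bases long and also annotated as intron-retaining, held the largest single part of CLK1 TPM (20.1% on average). It was at 14.98, 14.6 and 13.6 TPM in the double knockout and 21.7, 22.5 and 15.2 TPM in the JUN knockout, without overlap. The intron-retaining CLK1-207, with introns 4 and 7 in place, did not overlap either (2.78, 2.99 and 3.39 TPM against 4.94, 3.64 and 3.86 TPM in the JUN knockout). Log2 fold changes above 0 were seen for the coding CLK1-203 (0.32) and the intron-retaining CLK1-211 (0.86), whose groups overlapped. Of the 15 CLK1 transcripts, 12 were tested, 6 had double-knockout values below all JUN-knockout values and 0 had them above. That compares with 9.1% of all tested transcripts below and 5.35% above. Transcripts of the same gene share its level and its reads, so these CLK1 counts are not independent observations.

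**Figure D4:**
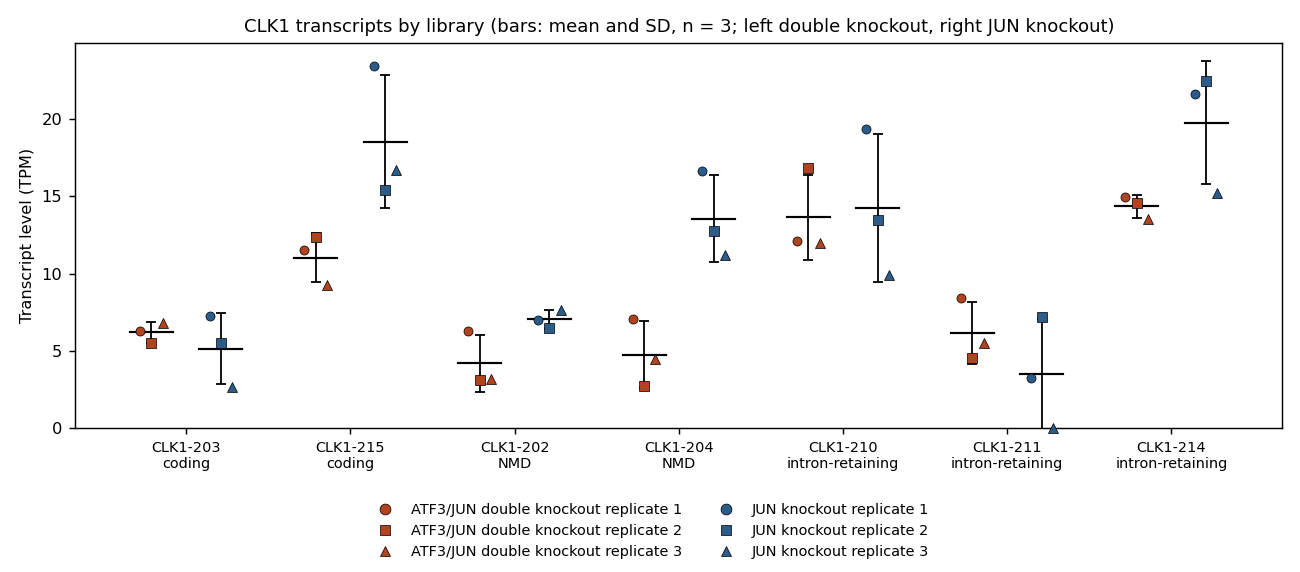
Level in TPM of the 7 CLK1 transcripts that hold at least 5% of the gene's TPM, in ATF3/JUN double-knockout (left of each pair) and JUN-knockout (right) libraries, with mean and SD (n = 3; a lower bar that would pass 0 is cut there). The exon-4-skipping CLK1-215 and CLK1-204, the decay-class CLK1-202 and the intron-retaining CLK1-214 are lower in all 3 double-knockout libraries. CLK1-210 with introns 3 and 4, CLK1-203 and CLK1-211 overlap.

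Sorting the transcripts that cover exon 4 by its state described the same values another way. This sorting was chosen after the transcript values were seen and has no test and no comparison with other genes. In CLK1, transcripts without exon 4 made up 44.7, 38.2 and 38.4% of the covering TPM in double-knockout libraries, against 53.5, 50.3 and 52.7% in JUN-knockout libraries. Transcripts that retained intron 3 or 4 made up 35.8, 50.2 and 43.0% in the double knockout, against 32.4, 30.5 and 26% in the JUN knockout. Their summed level overlapped, at 14.9, 19.8 and 15.4 TPM in the double knockout and 24.3, 17.1 and 13.8 TPM in the JUN knockout. That of transcripts without exon 4 did not, at 18.6, 15.1 and 13.7 TPM against 40.1, 28.2 and 27.95 TPM. Those with exon 4 spliced in overlapped, at 19.6, 11.6 and 18.7% in the double knockout and 14.1, 19.2 and 21.3% in the JUN knockout. In CLK4, all 3 states overlapped between genotypes, and exon 4 was spliced in for 47.9 to 55.1% of covering TPM in the double knockout and 49.6 to 57.2% in the JUN knockout. In CLK3, exon 4 was spliced in for 78.6, 82.5 and 72.7% in the double knockout, against 69.4, 60.2 and 67.5% in the JUN knockout. Those groups did not overlap, but skipped CLK3 transcripts held only 26.6 to 38.9 estimated reads in the double knockout and 39.6 to 87.5 in the JUN knockout.

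**Figure D5:**
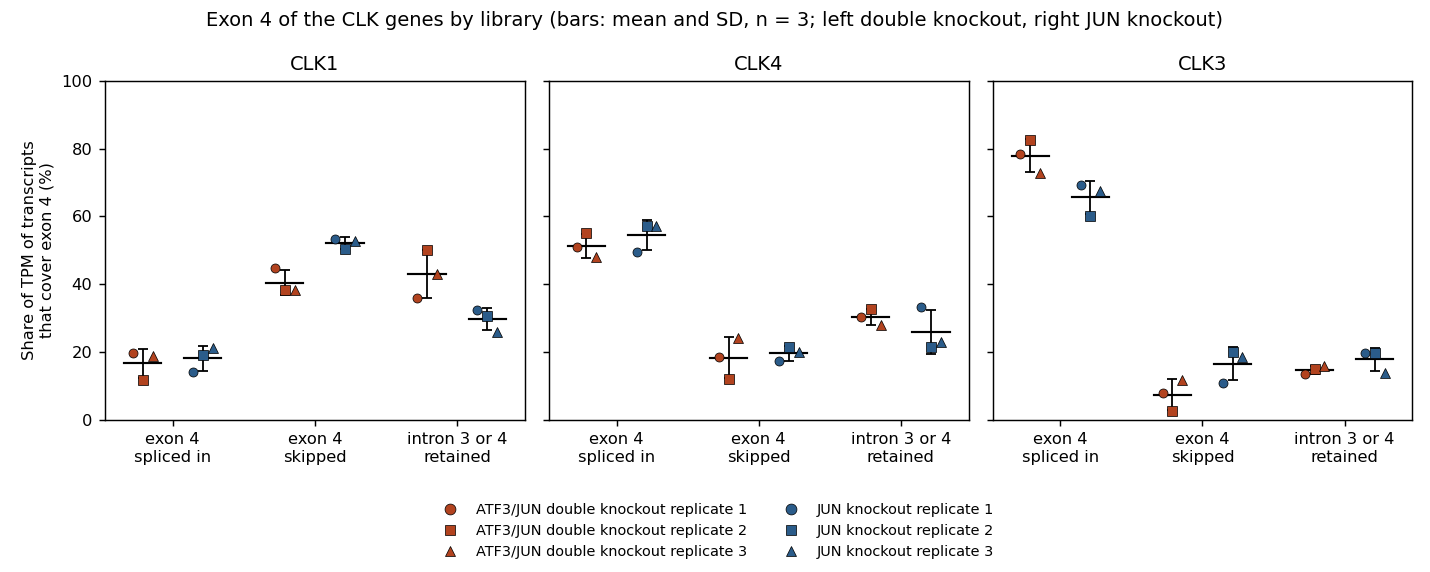
Share (%) of the TPM of transcripts that cover exon 4, by its state, for CLK1, CLK4 and CLK3, with mean and SD (n = 3). ATF3/JUN double-knockout libraries are left of each pair and JUN-knockout libraries right. Exon 4 is spliced in, skipped, or overlapped without its exact ends, which is labelled as intron 3 or 4 retained. In CLK1 the skipped share is between 38.2 and 44.7% in the double knockout and between 50.3 and 53.5% in the JUN knockout.

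Among the other kinases, few transcripts carried most of each gene. CLK4-201, its main coding transcript, was at 7.91, 6.42 and 6.60 TPM in double-knockout libraries, against 10.1, 9.08 and 8.63 TPM in JUN-knockout libraries (log2 fold change -0.38, SE 0.13, edgeR, adjusted p = 0.778). Its length in the deposited files, 2504 bases, also differs from the annotated 2568. CLK4-211, of the decay class, overlapped between genotypes, as did the intron-retaining CLK4-203 with introns 3 and 4. CLK3-201, the main coding transcript of CLK3, was at 19.9, 18.1 and 14.8 TPM in the double knockout and 17.5, 14.9 and 14.2 TPM in the JUN knockout.

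SRPK1 was divided mainly between 2 coding transcripts. SRPK1-202 (671 codons) was at 24.0, 33.8 and 27.7 TPM in double-knockout libraries, against 22.4, 24.0 and 17.1 TPM in JUN-knockout libraries, and SRPK1-205 (639 codons) was at 33.0, 26.5 and 31.6 TPM in double-knockout libraries, against 31.9, 33.2 and 41.0 TPM in JUN-knockout libraries. The SRPK1-202 groups did not overlap (log2 fold change 0.46, SE 0.16, edgeR, adjusted p = 0.789), as in 5.35% of tested transcripts in that direction. The SRPK1-205 groups overlapped. SRPK1-201, which retains intron 1, was at 3.85, 3.92 and 3.75 TPM in the double knockout and 3.48, 3.38 and 2.96 TPM in the JUN knockout. SRPK2-202 held 68.9% of SRPK2 TPM, and DYRK1A-224 held 62.5% of DYRK1A TPM. Both overlapped between genotypes, with log2 fold changes of 0.26 (SE 0.15) and 0.05 (SE 0.14).

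Over the 7 genes, 26 of 110 transcripts were at 0 in all libraries and 55 had enough reads for the test. Of those 55, 8 had double-knockout values below all JUN-knockout values, 6 of them in CLK1, and 2 had them above, where 9.1% and 5.35% of all tested transcripts did. The CLK1 transcripts share that gene's level and are not independent of each other.

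The kinases' substrates and the RNA decay factors were read from lists. Of 12 SR proteins, the direct substrates, 11 had a log2 fold change below 0 (median -0.12), and of 15 SR-related proteins 12 did (median -0.10), against 6382 of 12954 genes with a median of 0.0032. None passed the edgeR test. All lists were chosen with earlier results of these data known. SRSF3, the most abundant SR protein gene, was at 494, 464 and 516 CPM in double-knockout libraries, against 460, 550 and 580 CPM in JUN-knockout libraries. SRSF11, with the lowest p among the SR proteins, was at 335, 372 and 362 CPM in the double knockout and 375, 396 and 419 CPM in the JUN knockout (edgeR adjusted p = 0.893). SRRM2, a large scaffold protein of nuclear speckles, was the most abundant of the SR-related list, at 836, 975 and 984 CPM in the double knockout and 777, 894 and 992 CPM in the JUN knockout, and its sign turned with a transcript length offset. CLASRP, an SR-related protein that binds CLK4, had the lowest p of its list, at 75.6, 85.6 and 86.3 CPM in the double knockout, against 121, 131 and 113 CPM in the JUN knockout (log2 fold change -0.56, SE 0.094, edgeR adjusted p = 0.546). Its groups did not overlap, as in 5.94% of genes in that direction. DESeq2, which called 55 of 19647 genes (0.28%), gave it an adjusted p of 0.000366, with a range up to 0.9998 over all alternatives.

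Of 12 tested kinases from the neighbouring DYRK, SRPK and CDK branches, 5 were below 0 with a median of 0.03, and CDK11B had the lowest p, at 69.9, 67.6 and 66.6 CPM in double-knockout libraries against 76.9, 85.5 and 79.8 CPM in JUN-knockout libraries. PRPF4B, the most abundant of these kinases, was at 163, 173 and 208 CPM in the double knockout and 184, 206 and 231 CPM in the JUN knockout. Of 6 genes of protein phosphatase 1, which removes the phosphates, and of SR protein import, 3 were below 0 (median -0.03), and the catalytic subunit gene PPP1CC was at 239, 227 and 215 CPM in the double knockout and 253, 250 and 251 CPM in the JUN knockout. Among 14 nonsense-mediated decay factors 8 were below 0 with a median of -0.0019, UPF3B had the lowest unadjusted p (0.107), and SMG1, the kinase of the decay pathway, was at 234, 261 and 249 CPM in the double knockout and 279, 222 and 244 CPM in the JUN knockout. Among 7 nuclear RNA decay factors 5 were below 0 (median -0.04), and RBM7 was higher, at 36.7, 37.7 and 37.0 CPM in the double knockout against 28.7, 31.8 and 30.7 CPM in the JUN knockout (edgeR adjusted p = 0.789). PABPN1, the most abundant of that list, was at 209, 204 and 227 CPM in the double knockout and 189, 241 and 251 CPM in the JUN knockout. Of 6 tested heat shock genes 5 were below 0 (median -0.11), while HSPA8 was at 2040, 2280 and 2580 CPM in the double knockout and 1700, 2160 and 2580 CPM in the JUN knockout. HSPH1, with the lowest p of the heat shock list, was at 153, 158 and 248 CPM in the double knockout and 140, 247 and 324 CPM in the JUN knockout, a log2 fold change of -0.35 (SE 0.32).

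The log2 change of the intron-retaining to coding ratio was below 0 for 5 of 8 tested SR protein genes and 10 of 11 SR-related genes. It was also below 0 for 9 of 9 nonsense-mediated decay factors and 5 of 5 nuclear decay factors, as for 3513 of all 4632 genes. Of the 5 tested kinases of the CLK, SRPK and DYRK1A set, 2 had a log2 change below 0. None of these genes passed the edgeR test of the ratio.

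The RefSeq promoter windows of the 7 kinases (250 bases before to 50 after a gene's start, GRCh38.p14) were searched on both strands for sites of bZIP factors. The AP-1 site TGACTCA and the CRE TGACGTCA occurred in 0 of 17 windows, against 4.95% and 1.85% of all 35116 windows, and the partial CRE TGACG, which lies within the CRE, occurred in 6 windows of CLK1, CLK3, CLK4, SRPK2 and DYRK1A, against 24.6% of all windows. These letters describe the windows only.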

How the data were processed

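PolyA RNA of EoL-1 cells was sequenced in 6 libraries, 3 per genotype. Per the submitters' processing notes, the authors used FastQC 0.11.9 and Salmon 1.6.0 with hg38. The deposited estimated counts and TPM values, per the file headers, were joined to GENCODE 29 by transcript identifier without its version, and 94.12% of 177456 transcripts matched. Unmatched transcripts held 3.58 to 3.71% of reads and were left out. Salmon's sharing of reads among transcripts is not in the files, so its uncertainty is in no p-value.

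Estimated counts were summed per gene or per transcript class and rounded. Tests were edgeR 4.0.16 quasi-likelihood F tests (R 4.3.3, filterByExpr, TMM, two-sided, Benjamini-Hochberg at 0.05). The ratio model had intron-retaining (or decay-class) and coding columns for each library, a term per library, and a mean of at least 10 reads per class. Shares were compared by exact permutation, which cannot go below 0.1. DESeq2 1.42.0 and limma 3.58.1 were alternatives. The main edgeR fits of genes, transcripts and both ratios were tried on simulated counts with known changes. The alternatives, shares and exact permutations were not.

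The members and lists were chosen with earlier results of these data known. Transcripts with at least 5% of gene TPM were eligible for naming, although not all of them are described and some below it are. In each list with no call, the most abundant gene and the one with the lowest p were named. Replicate numbers were taken to pair the genotypes, as deposited file names share clone codes. Deviations of same-numbered libraries from their groups gave r = 0.387, 0.103 and 0.523, each over the limit of 0.1. Differently numbered libraries passed it too: double-knockout replicate 2 with JUN knockout replicate 1 (r = 0.201), and double-knockout replicate 3 with JUN knockout replicate 2 (r = 0.103). These r values thus do not single out the same-numbered pairs. The main fits have no replicate block, and the blocked fits are alternatives.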

Additional observations from a re-analysis of the deposited data

How the results depend on the processing

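edgeR called 0 genes, 0 transcripts and 0 genes of either ratio, with 753, 2923, 775 and 151 at an unadjusted p under 0.05. Gene calls became 55 with DESeq2, 4 with limma-voom and 1 with no low-count filter, and transcript calls became 691 with DESeq2, which also called CLASRP (-0.56), CLK1-215 (-0.69) and CLK1-204 (-1.44). The fit with the replicate block called 0 and changed no other call, with CLK1 at -0.45 (edgeR adjusted p = 0.231) and 1268 genes at an unadjusted p under 0.05. Beyond single libraries, signs turned for CLK3 (0.0007) and SRRM2 (-0.12) and SMG1 (0.0191) with a transcript length offset, for SMG1 with limma-voom (0.0045), no low-count filter (0.0001) and the replicate block (0.0043), and for CLK1-210 with the replicate block (0.0023). Leaving out each library in turn gave log2 changes from -0.0351 to 0.0373 for CLK3, -0.0576 to 0.0992 for SRPK1, -0.0956 to 0.0363 for DYRK1A, -0.0399 to 0.256 for HSPA8, -0.083 to 0.0923 for SMG1, -0.0175 to 0.1578 for SRRM2, -0.204 to 0.2068 for CLK1-210, -0.0291 to 0.8137 for CLK3-208, -0.3476 to 0.9809 for CLK3-218, -0.4919 to 0.3477 for CLK3-222, -0.1357 to 0.0988 for CLK4-203, -0.1513 to 0.0108 for CLK4-211, -0.4066 to 0.1982 for CLK4-212, -0.244 to 0.5164 for CLK4-213, -0.3715 to 0.0253 for DYRK1A-201, -0.0742 to 0.9713 for DYRK1A-215 and -0.0657 to 0.177 for DYRK1A-224. It gave -1.3755 to 0.1197 for the decay-class ratio of CLK3, -0.0358 to 0.3135 for that of CLK4 and -0.1699 to 0.5752 for that of SRPK1, and share differences of -2.88 to 0.1164 points for CLK3 and -0.503 to 0.1255 points for SRPK2. The cause was not tested. For CLK1, the same operation gave 7.33 to 14.6 points for the share and 0.36 to 0.53 for the log2 ratio, and adding decay-class to coding reads, chosen after seeing the data, gave 0.71. The other 782 values kept their direction and side of the threshold. Depth limits SRPK2 and DYRK1A, whose intron-retaining reads number under 50 a library, and counting intervals were not drawn because estimated reads are shared between transcripts.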
